A study of Mus musculus with 8 samples.

Results

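The genes described here are 10 genes of the PIWI-interacting RNA (piRNA) pathway: Piwil2, Piwil4, Mael, Tdrd1, Tdrd5, Tdrd9, Mov10l1, Asz1, Gtsf1 and Pld6. They were chosen by name, as the rows of the raw count table that carry these symbols, and they are 10 of its 55421 genes. All 10 were among the 20588 genes with enough counts to be tested. RNA was sequenced from SSC cultures, which are primary mouse spermatogonia grown from neonatal testes of a C57BL/6XDBA/2 background on a layer of irradiated mouse embryonic fibroblasts. The medium held N2 supplement, and the labels give bFGF and GDNF at 10 ng/ml each for all libraries. The study's own media list gives a higher GDNF concentration. It makes nutrient restriction medium by diluting SSC medium in a salt solution, which by that recipe dilutes the growth factors as well. The cultures were labelled Stra8KO or Spo11KO, and each genotype was given vehicle (Veh) or NRRA, that is, retinoic acid in nutrient restriction medium. This gave 4 groups with 2 libraries in each. Wild-type cultures were not analysed here, so every comparison is between cultures labelled as knockouts of a meiosis gene.

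piRNAs are small RNAs of germ cells that guide PIWI proteins to transposon transcripts and to transposon DNA. Long precursor transcripts are unwound and cut at the surface of mitochondria and in the neighbouring nuage, a cytoplasmic granule of germ cells, where Tudor domain proteins hold the PIWI proteins and their helpers together. In the mouse male germline, loss of most of these genes derepresses transposons and stops spermatogenesis at or before meiosis, the division that Stra8 helps to start and in which Spo11 makes the DNA breaks.

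Library totals ran from 20960794 to 27038868 counts. Stra8KO libraries held 2 and 0 counts of Stra8 with Veh and 169 and 170 with NRRA, and libraries labelled Spo11KO held 28 and 12 with Veh and 12604 and 16191 with NRRA. Spo11 had 72, 75, 148 and 127 counts in the libraries labelled Spo11KO and 31 to 68 in those labelled Stra8KO, so its counts per gene do not check the Spo11KO label, and the cultures are called labelled Spo11KO. The study calls its sequencing replicates biological and independent. The labels name no animal or culture for a library, and the p-values measure the spread between these libraries. Germ cells and feeders were sequenced together. The summed level of 7 germ cell markers (Ddx4, Dazl and others) was 920 to 952 CPM (TMM-scaled counts per 1e+06 library counts) in the 4 Stra8KO libraries and 1880 to 2040 in the 4 labelled Spo11KO. That of 14 fibroblast markers was 25000 to 39700 CPM in Stra8KO and 12900 to 20600 in labelled Spo11KO. The summed levels of 5 macrophage, 5 Sertoli and 5 Leydig cell markers were 33.9 to 61.7, 14.9 to 45.3 and 5.83 to 8.59 CPM. No marker of these lists was at 0 in a whole group.

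The promoter sequences are shown first. They were searched for 5 motifs, which were set beside NRRA results already known, so a match between them is no test. A short motif was found in the promoters of 5 of the 6 genes that rose under NRRA in both genotypes. The remaining gene, Piwil2, could not be searched. Another motif, CCAAT, was found in 4 of the 5 genes that were searched, beside 37.4% of all mouse promoters. RefSeq promoters, from 250 bases before to 50 bases after the gene start (build GRCm38.p6), were found for 9 of the 10 genes. The E-box CACGTG, which reads the same on both strands and is bound by dimers that contain MAX, was in 5 of the 9 promoters, those of Mael, Tdrd1, Tdrd9, Mov10l1 and Pld6. Of all 32851 mouse promoters of this length, 7.15% held it. The motif contains a CpG, and among the 14705 promoters within the CpG range of these genes (observed to expected ratio 0.43 to 1.11) the share was 10.6%. Pld6 and Tdrd9, which had the largest rises in cultures labelled Spo11KO among these genes, and Gtsf1, which did not pass the test in either genotype, are printed whole and 5′ to 3′ on the strand of the gene, with the E-box in capitals. The 30 bases around the E-box are given for Mael and Tdrd1, and the first 22 bases of the promoter window for Mov10l1.
Pld6 (chr11:59787608-59787907, minus strand): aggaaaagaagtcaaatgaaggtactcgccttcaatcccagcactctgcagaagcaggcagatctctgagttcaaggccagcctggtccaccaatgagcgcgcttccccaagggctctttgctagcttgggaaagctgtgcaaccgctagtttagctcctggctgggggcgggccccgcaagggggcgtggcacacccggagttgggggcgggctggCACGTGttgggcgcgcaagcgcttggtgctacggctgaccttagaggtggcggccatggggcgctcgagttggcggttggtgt
Tdrd9 (chr12:111971309-111971608, plus strand): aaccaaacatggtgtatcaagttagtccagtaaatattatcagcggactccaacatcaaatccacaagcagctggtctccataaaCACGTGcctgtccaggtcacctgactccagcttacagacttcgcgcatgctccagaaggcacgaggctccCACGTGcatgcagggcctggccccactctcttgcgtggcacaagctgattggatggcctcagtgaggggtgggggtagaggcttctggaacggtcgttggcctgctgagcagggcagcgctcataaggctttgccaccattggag
Gtsf1 (chr15:103430378-103430677, minus strand): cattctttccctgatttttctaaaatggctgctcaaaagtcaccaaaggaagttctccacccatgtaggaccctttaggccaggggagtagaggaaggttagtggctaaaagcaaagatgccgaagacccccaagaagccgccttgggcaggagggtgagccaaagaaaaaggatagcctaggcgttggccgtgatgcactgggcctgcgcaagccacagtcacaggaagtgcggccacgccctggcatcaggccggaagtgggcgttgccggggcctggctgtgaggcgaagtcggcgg
Mael (chr1:166238950-166238979, minus strand): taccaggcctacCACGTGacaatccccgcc
Tdrd1 (chr19:56826186-56826215, plus strand): tggggctgcgcgCACGTGggagtaaactgc
Mov10l1 (chr15:88982744-88982765, plus strand): ccttCACGTGctaaccgccaac

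The E-box began 33 bases before the start of Pld6, 11 before that of Tdrd1, 223 before that of Mael and 246 before that of Mov10l1. Tdrd9 held it at 165 and at 95 bases before its start. These distances are from RefSeq starts, and that of Mov10l1 lay 85 bases from its GENCODE gene start and that of Pld6 12 bases. The motif reported for STRA8, CNCCTCAG, was found after the gene start of Mov10l1 and of Asz1, and in 7.94% of all promoters. Neither match overlapped an E-box. The E2F motif TTCCCGC was found in Tdrd5 alone and in 4.6% of all promoters, the nuclear receptor motif AGGTCA in Tdrd9 and Pld6 and in 16.3%, and CCAAT in Mael, Tdrd9, Mov10l1 and Pld6 and in 37.4%. All motifs were searched on both strands. None of the 5 was found in the windows of Gtsf1 and Piwil4. The RefSeq start of Tdrd5 lay 316 bases from the GENCODE gene start, so its window may not hold the promoter used in these cells.

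To compare levels between genes, counts were also divided by exon length (RPKM). In cultures labelled Spo11KO with Veh, Mael had the highest level of the 10, at 72.1 ± 2.54 RPKM (SD, n = 2, as for all means below). Mov10l1 followed at 48.5 ± 0.413 and Piwil2 at 40.5 ± 0.822. Asz1, Tdrd1, Gtsf1, Tdrd9 and Tdrd5 lay between 17.9 and 9.63 RPKM. The lowest levels were those of Pld6 at 4.08 ± 0.371 and Piwil4 at 3.25 ± 0.182. Stra8KO Veh cultures had the same first 3 and the same last 2, from Mael at 36.6 ± 0.707 down to Piwil4 at 1.44 ± 0.00889 RPKM, and the levels of Tdrd9 (6.32 and 6.62) and Tdrd5 (6.19 and 6.52) overlapped. Under NRRA in labelled Spo11KO, Tdrd9 stood next after these 3 at 20.5 ± 0.325 RPKM, above Tdrd1 at 18.5 ± 0.078, and Pld6 stood above Tdrd5 (11.5 ± 0.489 against 7.63 ± 0.128).

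**Figure D1:**
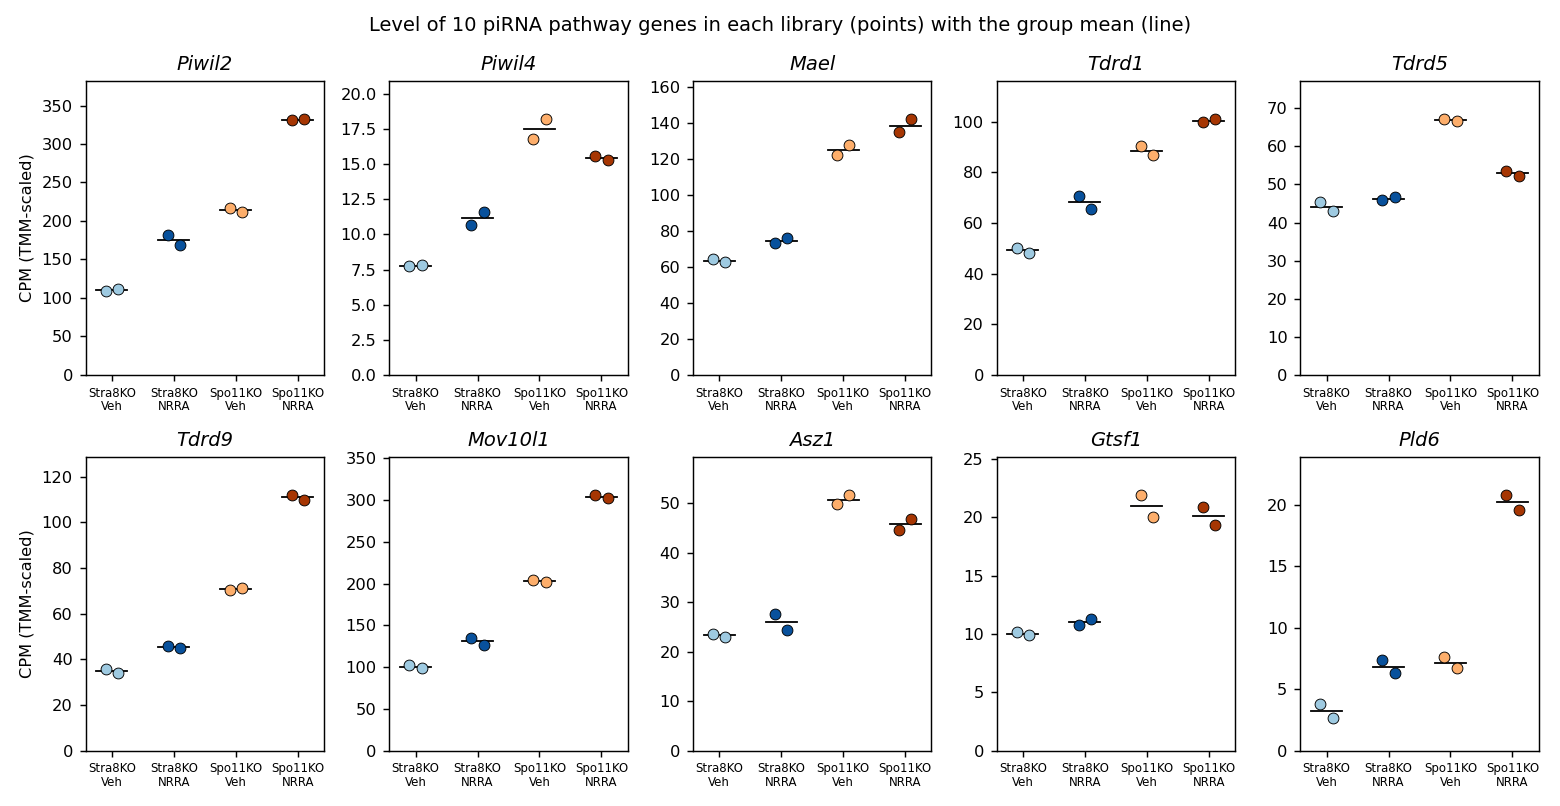
Level of each gene in each of the 8 libraries, in CPM after TMM scaling (vertical axes from 0, a separate scale for each gene). Points are libraries and lines are means of the 2 libraries of a group. On this scale, all 10 genes lie lower in Stra8KO than in labelled Spo11KO in the same medium, a direction that turns for most of them when levels are set against germ cell markers, and Pld6 under NRRA in labelled Spo11KO (20.8 and 19.6 CPM) lies far above its other 6 libraries.

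The first question was how the pathway responded to NRRA in each genotype. Of the 10 genes, 7 rose in Stra8KO and none fell, beside 21.4% of all tested genes called higher and 20.1% called lower, and the median log2 difference was 0.38 beside 0.01 for all genes. In cultures labelled Spo11KO, 6 rose and 2 fell, beside 24.7% called higher and 25.5% called lower, with a median of 0.17 beside 0.01. Piwil2, Mael, Tdrd1, Tdrd9, Mov10l1 and Pld6 rose in both genotypes. Piwil4 rose in Stra8KO, Tdrd5 and Asz1 fell in labelled Spo11KO, and Gtsf1 passed the test in neither. Calls, here and below, are adjusted p-values under 0.05 from the quasi-likelihood F test of edgeR, adjusted by Benjamini-Hochberg over all tested genes. All values below are CPM after TMM scaling or log2 differences of these levels.

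Markers of cell types moved with NRRA as well. Of the 14 fibroblast markers, 9 rose and 4 fell in Stra8KO (median 0.63), beside 21.4% and 20.1% of all tested genes. In labelled Spo11KO 9 rose and 5 fell (median 0.48), beside 24.7% and 25.5%. Their sum went from 25000 and 25500 to 39700 and 39200 CPM in Stra8KO and from 12900 and 13000 to 20600 and 20000 in labelled Spo11KO. Collagens such as Col1a1 rose (means of 4140 and 11400 CPM in Stra8KO with Veh and NRRA), while Fn1, Lum, Vim and Prrx1 fell in both genotypes. Of 5 markers of differentiating spermatogonia, Stra8 among them, 4 rose in each genotype (medians 1.78 and 2.01). The exceptions were Sohlh2 in Stra8KO (-0.07, not called) and Dmrtb1 in labelled Spo11KO, which fell (-0.94). The sum of the 5 went from 120 and 112 to 343 and 330 CPM in Stra8KO and from 199 and 193 to 1080 and 1150 in labelled Spo11KO. Stra8, the gene targeted in Stra8KO, went from a mean of 0.851 to 519 CPM within the latter sum. The sum of the 7 germ cell markers went from 943 and 920 to 952 and 932 CPM in Stra8KO and from 1980 and 2040 to 1880 and 1970 in labelled Spo11KO. The part of these shifts in the NRRA differences of the piRNA genes was not tested.

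Gene positions below are those of GENCODE M21 on build GRCm38. Among the PIWI proteins, Piwil2 (chr14:70372477-70429383, minus strand) encodes MILI, the cytoplasmic PIWI protein that slices transposon transcripts. Its level was 109 and 111 CPM with Veh and 182 and 169 with NRRA in Stra8KO, and 217 and 211 with Veh and 331 and 332 with NRRA in labelled Spo11KO. NRRA libraries were above Veh libraries in both genotypes with no overlap. The log2 difference was 0.67 ± 0.0435 (SE) in Stra8KO (1.59-fold, edgeR adjusted p = 8.88e-17) and 0.63 in labelled Spo11KO (1.55-fold, edgeR adjusted p = 4.02e-17). Piwil4 (chr9:14696230-14740733, minus strand) encodes MIWI2, the nuclear PIWI protein that directs DNA methylation to transposons in prospermatogonia before birth. It had 7.74 and 7.8 CPM with Veh and 10.7 and 11.6 with NRRA in Stra8KO, and 16.8 and 18.2 with Veh and 15.6 and 15.3 with NRRA in labelled Spo11KO. Both NRRA libraries were higher than both Veh libraries in Stra8KO and lower in labelled Spo11KO. The rise in Stra8KO was 0.52 ± 0.121 (edgeR adjusted p = 4.46e-04), and the difference in labelled Spo11KO was -0.18 (95% interval -0.36 to 0.00, edgeR adjusted p = 0.096). With the libraries scaled by 6 germ cell markers (all but Elavl2, as explained below) the latter was called, at -0.26 (edgeR adjusted p = 0.0141). The antisense gene Gm10706 covers 2.54% of the exon bases of Piwil4 and had 5 to 28 counts per library, and whether counting used strand is not given in the sources used here.

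Gtsf1 (chr15:103402405-103430470, minus strand) encodes a small zinc finger protein that helps PIWI proteins to cleave and silence their targets. It had 10.2 and 9.87 CPM with Veh and 10.8 and 11.3 with NRRA in Stra8KO, and 21.9 and 20 with Veh and 20.9 and 19.3 with NRRA in labelled Spo11KO. The media overlapped in labelled Spo11KO. The NRRA difference was 0.13 in Stra8KO (95% interval -0.10 to 0.36) and -0.06 in labelled Spo11KO (95% interval -0.23 to 0.10).

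Of the genes that make piRNAs from precursors, Mov10l1 (chr15:88982909-89055152, plus strand) encodes the RNA helicase that takes up the precursor transcripts, and Pld6 (chr11:59783897-59787645, minus strand) encodes the nuclease of the mitochondrial surface, MitoPLD, that cuts them. Mov10l1 had 102 and 98.5 CPM with Veh and 135 and 127 with NRRA in Stra8KO, and 204 and 202 with Veh and 306 and 302 with NRRA in labelled Spo11KO. The media did not overlap in either genotype. Its rise was 0.39 in Stra8KO (1.31-fold, edgeR adjusted p = 1.15e-09) and 0.58 in labelled Spo11KO (1.5-fold, edgeR adjusted p = 4.66e-16). Pld6 had 84 and 53 counts with Veh and 152 and 136 with NRRA in Stra8KO, and 181 and 154 with Veh and 539 and 574 with NRRA in labelled Spo11KO, which in the same order are 3.76 and 2.67, 7.34 and 6.28, 7.62 and 6.7, and 20.8 and 19.6 CPM. It had the largest NRRA differences of the 10 genes in both genotypes, with no overlap between media. The rises were 1.07 ± 0.176 in Stra8KO (2.09-fold, edgeR adjusted p = 2.70e-06) and 1.49 ± 0.11 in labelled Spo11KO (2.81-fold, edgeR adjusted p = 4.69e-15).

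Asz1 (chr6:18050964-18109061, minus strand) encodes GASZ, a scaffold anchored on mitochondria that is needed for the cement between them. It had 23.6 and 23 CPM with Veh and 27.6 and 24.4 with NRRA in Stra8KO, and 49.8 and 51.6 with Veh and 44.6 and 46.8 with NRRA in labelled Spo11KO. Both NRRA libraries were above Veh in Stra8KO and below Veh in labelled Spo11KO. The difference in Stra8KO was 0.16 (95% interval 0.00 to 0.32, edgeR adjusted p = 0.113), and the fall in labelled Spo11KO was -0.15 (edgeR adjusted p = 0.0432). The second call was lost under 5 other settings and without either Stra8KO Veh library (-0.15 each), either Veh library labelled Spo11KO (-0.17 and -0.13) or the first NRRA library labelled Spo11KO (-0.12). With the 6 germ cell markers the fall was larger, -0.23 (edgeR adjusted p = 0.00154). With all 7 markers the difference in Stra8KO was called instead, at 0.25 (edgeR adjusted p = 0.0152).

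The Tudor domain genes of the nuage did not move together. Tdrd1 (chr19:56826209-56870012, plus strand), whose product binds MILI in the nuage, had 50.3 and 48.2 CPM with Veh and 70.9 and 65.5 with NRRA in Stra8KO, and 90.4 and 86.8 with Veh and 100 and 101 with NRRA in labelled Spo11KO. Its rise was 0.47 ± 0.0566 in Stra8KO (edgeR adjusted p = 4.02e-09) and 0.18 in labelled Spo11KO (edgeR adjusted p = 0.00198), without overlap of the media. Tdrd9 (chr12:111971559-112068854, plus strand), a Tudor domain RNA helicase that works with MIWI2, had 35.8 and 34.2 CPM with Veh and 46 and 45 with NRRA in Stra8KO, and 70.5 and 71.1 with Veh and 112 and 110 with NRRA in labelled Spo11KO. NRRA libraries were higher in both genotypes, by 0.38 in Stra8KO (edgeR adjusted p = 2.24e-06) and 0.65 in labelled Spo11KO (edgeR adjusted p = 1.26e-14).

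Tdrd5 (chr1:156255296-156303664, minus strand), needed for the granules of the nuage and for transposon silencing, went the other way in labelled Spo11KO. Its level was 45.3 and 43 CPM with Veh and 45.9 and 46.6 with NRRA in Stra8KO, and 67.1 and 66.6 with Veh and 53.6 and 52.3 with NRRA in labelled Spo11KO. The fall in labelled Spo11KO was -0.34 (edgeR adjusted p = 1.54e-06), and the difference in Stra8KO was 0.07 (95% interval -0.06 to 0.19). An antisense gene, 4930518J20Rik, covers 2.54% of its exon bases and had 19 to 42 counts per library. Mael (chr1:166201201-166238747, minus strand), which encodes the nuage protein Maelstrom, had 64.2 and 62.5 CPM with Veh and 73.3 and 76 with NRRA in Stra8KO, and 122 and 128 with Veh and 135 and 142 with NRRA in labelled Spo11KO. It rose by 0.24 in Stra8KO (edgeR adjusted p = 2.97e-04) and by 0.15 in labelled Spo11KO (edgeR adjusted p = 0.00519). The second call was lost without the first Veh library (0.12) or without the second NRRA library (0.10) labelled Spo11KO.

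Set beside the promoters, the 5 genes with an E-box in the window were all called higher in both genotypes. Of all tested genes, 21.4% were called higher in Stra8KO and 24.7% in labelled Spo11KO. The share called higher in both was not computed, nor that among all genes with an E-box. Of the 4 genes with a promoter entry and no E-box (Piwil4, Tdrd5, Asz1 and Gtsf1), Piwil4 was called higher in Stra8KO and none was called higher in labelled Spo11KO. This is a description of 9 genes whose values were known when the motifs were set beside them. The calls of Mael and Tdrd1 in labelled Spo11KO are the weakest of the 5, and both were lost with the libraries scaled by 6 germ cell markers (0.07 and 0.10).

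The second question was whether NRRA acted differently on these genes in the 2 genotypes. This was tested as the interaction, the NRRA difference in Stra8KO minus that in labelled Spo11KO. Of the 10 genes, 4 had a higher (more positive) NRRA difference in Stra8KO and 2 a lower one, beside 14.6% and 10.1% of all tested genes, with a median of 0.14 beside 0.01. Piwil4 had the largest called interaction, 0.70 ± 0.15 (edgeR adjusted p = 3.78e-04). It was 0.40 ± 0.0818 for Tdrd5 (edgeR adjusted p = 1.75e-04), 0.30 ± 0.1 for Asz1 (edgeR adjusted p = 0.0213) and 0.29 ± 0.0753 for Tdrd1 (edgeR adjusted p = 0.00363). NRRA raised both helicases more in labelled Spo11KO, and the interaction was -0.27 ± 0.079 for Tdrd9 (edgeR adjusted p = 0.00805) and -0.20 ± 0.0599 for Mov10l1 (edgeR adjusted p = 0.0119). Both helicase calls were lost without the first Stra8KO Veh library (-0.24 and -0.18), and that of Mov10l1 also without the second Stra8KO NRRA library (-0.16). The call of Asz1 was lost without either Stra8KO Veh library (0.32 and 0.29), the first Stra8KO NRRA library (0.21), or the second Veh (0.28) or first NRRA library (0.27) labelled Spo11KO.

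Piwil2 had nearly the same rise in both genotypes, with an interaction of 0.04 and a 95% interval from -0.08 to 0.16. The intervals were wider for the other 3 genes that did not pass: -0.06 to 0.23 for Mael, -0.09 to 0.48 for Gtsf1 and -0.86 to 0.01 for Pld6, whose estimate of -0.43 rests on 53 and 84 counts in the Stra8KO Veh libraries. Other germ cell genes moved with the interaction. All 11 markers of undifferentiated spermatogonia fell under NRRA in labelled Spo11KO (median -2.85) against 6 of 11 in Stra8KO, where 4 rose (median -0.53), and all 11 had a called positive interaction. The 7 germ cell markers had a median interaction of -0.03, with 1 called in each direction, and the fibroblast markers one of 0.04. The part of these cell states in the interaction of the piRNA genes was not tested.

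**Figure D2:**
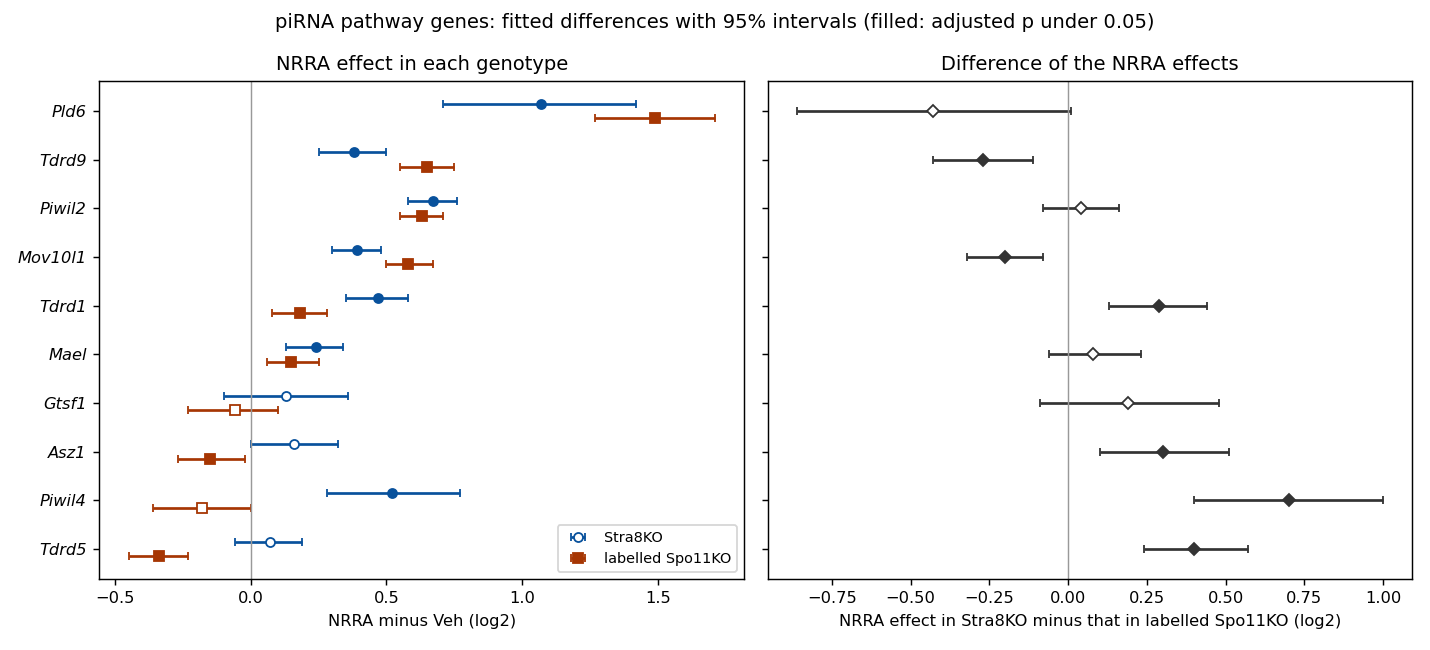
Fitted log2 differences of the 10 genes with 95% intervals, from 2 libraries per group. Left, NRRA minus Veh in Stra8KO (circles) and labelled Spo11KO (squares); right, the difference between those effects. Filled symbols passed the adjusted p of 0.05. Tdrd5, Piwil4, Asz1 and Gtsf1 lie below 0 in labelled Spo11KO and above it in Stra8KO, not all of them called, and Pld6 lies furthest right in both genotypes.

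The third question was how the genotypes differed in the same medium. All 10 genes were lower in Stra8KO than in labelled Spo11KO with Veh, beside 30.7% of tested genes called lower and 31.5% called higher, and all 10 were lower with NRRA, beside 29.1% lower and 35.2% higher; on the germ cell marker scale described next, this direction turned for 8 of them in Veh and 7 under NRRA. In Veh the log2 differences ran from -0.60 for Tdrd5 to -1.17 for Piwil4 with a median of -1.02. Under NRRA they ran from -0.19 for Tdrd5 to -1.57 for Pld6 with a median of -0.88. In neither medium did the 2 genotypes overlap for any of the genes. The 7 germ cell markers were lower as well, with medians of -1.07 in Veh and -1.10 under NRRA, and all 14 fibroblast markers were higher, with medians of 0.89 and 0.92. Fewer germ cells and less RNA per germ cell cannot be told apart in such bulk libraries.

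The levels were therefore also set against the germ cell markers, by scaling each library by the geometric mean of those 7 genes. On that scale the difference of the median tested gene between the genotypes was 1.13 in Veh and 1.20 under NRRA. In Veh, the differences of the 10 genes ran from -0.04 to 0.53 with a median of 0.12, beside -0.44 to 0.16 for the germ cell markers themselves. Piwil2 stood at 116% and 121% of the marker level in Stra8KO and at 108% and 102% in labelled Spo11KO, and Piwil4 at 8.19% and 8.53% against 8.34% and 8.81%. Of the 10, 5 were called higher in Stra8KO and none lower, beside 80.9% and 1.02% of all tested genes. The called differences were 0.12 for Mov10l1, 0.15 for Mael, 0.18 for Piwil2, 0.29 for Tdrd1 and 0.53 for Tdrd5 (edgeR adjusted p = 2.41e-09). Piwil4, Asz1, Gtsf1 and Pld6 were within -0.04 to 0.07, and Tdrd9 at 0.12 did not pass.

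Under NRRA the genes spread apart on this scale. In Stra8KO, 7 were called higher and 2 lower, beside 83.5% and 1.91% of all tested genes. Tdrd5 was at 52% and 53.8% of the marker level in Stra8KO and at 28.5% and 26.7% in labelled Spo11KO, a difference of 0.94 (edgeR adjusted p = 3.07e-15). Piwil4 was at 12.2% and 13.4% against 8.32% and 7.81%, a difference of 0.67, and Tdrd1 at 80.5% and 75.6% against 53.4% and 51.6%, a difference of 0.57. Pld6 was at 8.32% and 7.25% in Stra8KO against 11.1% and 10% in labelled Spo11KO, a difference of -0.43 (edgeR adjusted p = 0.00189). Tdrd9 differed by -0.15 (edgeR adjusted p = 0.0148), and Mov10l1 by -0.08, which did not pass. Elavl2, which is 1 of the 7 markers, itself fell under NRRA by 1.17 in Stra8KO and by 1.14 in labelled Spo11KO on the log2 scale. Without it, 3 genes were called higher and none lower in Veh, beside 79.1% and 1.4% of all tested genes, and 6 higher and 3 lower under NRRA, beside 81.7% and 2.43%.

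**Figure D3:**
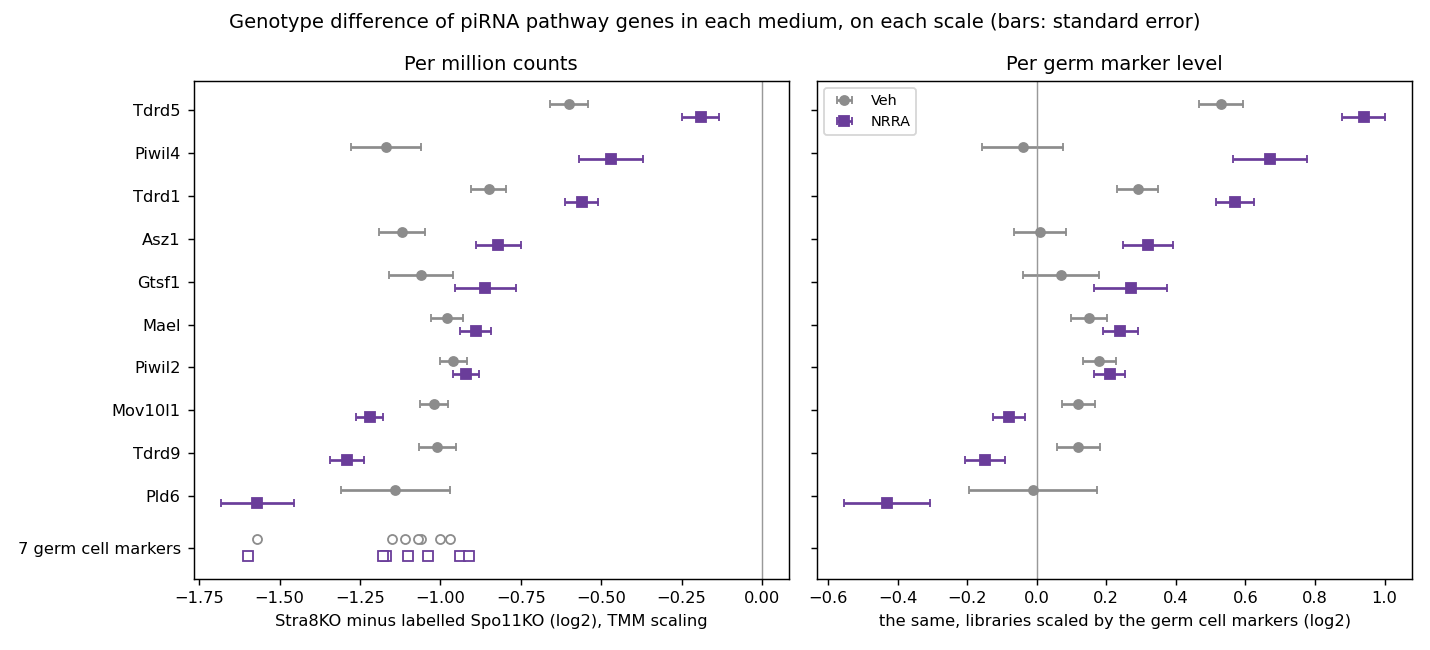
Difference between the genotypes (Stra8KO minus labelled Spo11KO, log2) in Veh (circles) and NRRA (squares), with standard errors. Left, after TMM scaling, with the 7 germ cell markers as open symbols; right, after scaling by those markers. All 10 genes lie below 0 on the left, in the range of the markers or above it; on the right Tdrd5, Piwil4 and Tdrd1 lie highest under NRRA and Pld6 lowest.

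Beyond the 10 genes, 23 other genes of the pathway were examined. Under NRRA, 12 of the 23 (52.2%) rose and 1 (4.35%) fell in Stra8KO, with a median of 0.19, beside 21.4% and 20.1% of all tested genes. In labelled Spo11KO 11 (47.8%) rose and 6 (26.1%) fell, with a median of 0.16, beside 24.7% and 25.5%, so the share of falls was near that of all genes. Tex15, which is needed for transposon silencing and for meiotic recombination, rose in both genotypes, from 84.2 and 84.1 CPM to 162 and 141 in Stra8KO (0.85) and from 260 and 278 to 427 and 450 in labelled Spo11KO (0.71). Henmt1, the methyltransferase that protects piRNA ends, rose by 0.77 and 1.01. Fkbp6, a cochaperone of PIWI loading, rose by 0.45 and 0.57. The fall in Stra8KO was that of Prmt5 (-0.22), the arginine methyltransferase whose marks on PIWI proteins the Tudor domains bind. In labelled Spo11KO the largest falls were those of Spocd1 (-1.32), a nuclear partner of MIWI2, Tdrd6 (-1.13), and Wdr77 (-0.44), the partner of Prmt5. Tdrd6 went from only 53 and 42 counts to 22 and 29. Dnmt3c, the DNA methyltransferase of young transposons, went from 2 and 1 counts to 18 and 14 in Stra8KO (edgeR adjusted p = 1.38e-04), and 1, 1, 4 and 5 counts in the libraries labelled Spo11KO, which is too few for a fold.

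Of these 23 genes, 6 (26.1%) had a called positive interaction and 1 (4.35%) a negative one, with a median of 0.00, beside 14.6% and 10.1% of all tested genes. Spocd1 had the largest, at 1.61 ± 0.22 (edgeR adjusted p = 2.05e-07). Its levels were 4.96 and 6.14 CPM with Veh and 6.52 and 6.92 with NRRA in Stra8KO, and 8.17 and 9.01 with Veh and 3.86 and 3.04 with NRRA in labelled Spo11KO. Spocd1 and Piwil4, which act together in the nucleus, both had a positive interaction. With TMM scaling the fall in labelled Spo11KO was called for Spocd1 and not for Piwil4. The fall of Piwil4 passed with the 6 germ cell markers (-0.26) and not with all 7 (-0.09). This pair was set together with its values known. Tex15, also needed for transposon silencing, rose in both genotypes (0.85 in Stra8KO and 0.71 in labelled Spo11KO). The interaction was 0.54 for Tex19.1 and 0.42 for Pnldc1, the trimmer of piRNA ends, and -0.26 for Rnf17, a Tudor domain gene. Between genotypes, 20 of 23 were lower and 2 higher in Stra8KO with Veh (median -0.85), beside 30.7% and 31.5% of all tested genes, and 18 lower and 3 higher with NRRA (median -0.65), beside 29.1% and 35.2%. This split turned with germ marker scaling, to 14 higher and 1 lower in Veh (median 0.28, beside 80.9% and 1.02%) and 15 higher and 1 lower under NRRA (median 0.48, beside 83.5% and 1.91%). Ddx4 is among these 23 genes and also among the germ cell markers used for that scaling. With TMM scaling, Tdrd6, Tex15, Tdrkh and Rnf17 were among the largest differences. That of Tdrd6 rests on 4 to 15 counts per Stra8KO library and 22 to 53 per library labelled Spo11KO. Mybl1, a transcription factor of pachytene piRNA loci, was higher in Stra8KO in both media (0.71 and 1.11), Dnmt3l in Veh (0.72), and Spocd1 under NRRA (0.97).

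**Figure D4:**
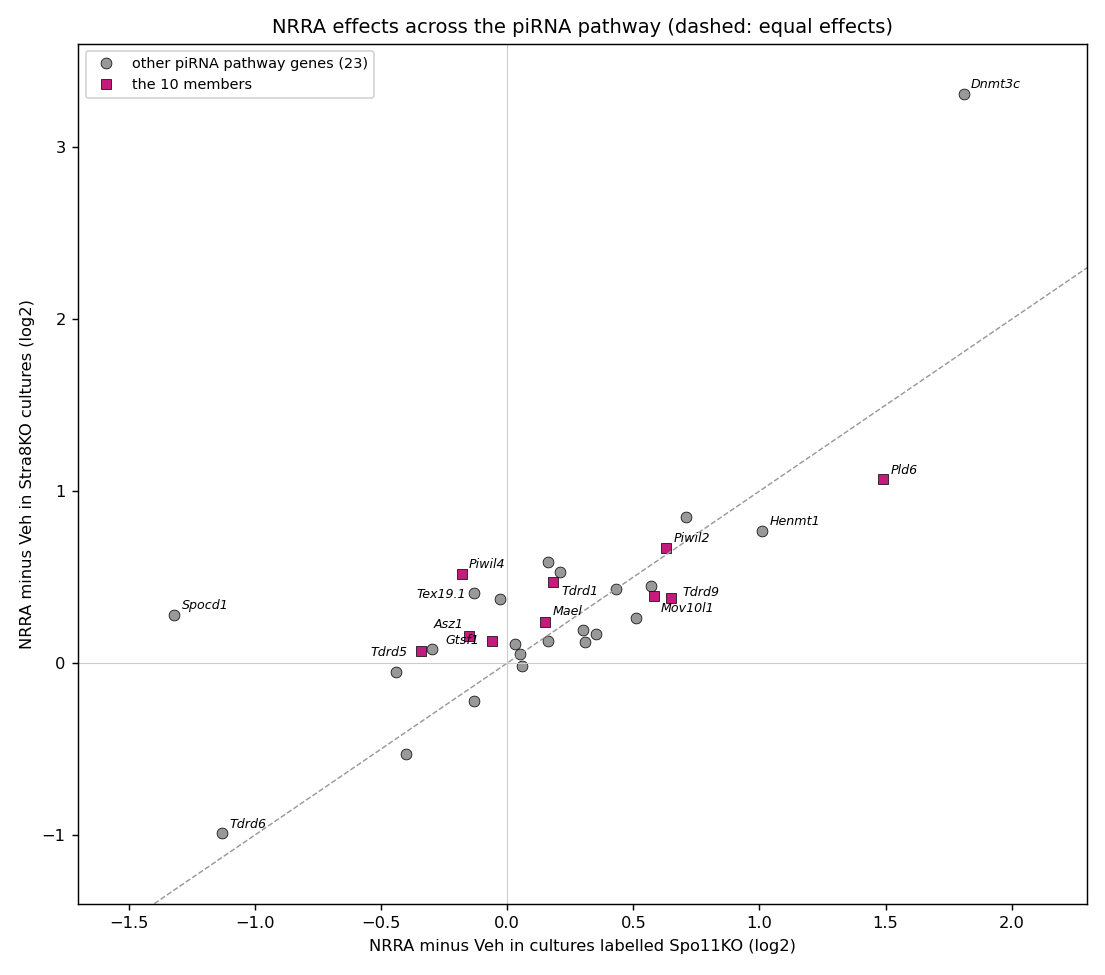
NRRA differences (log2) in cultures labelled Spo11KO (horizontal) and in Stra8KO (vertical) for the 10 genes (squares) and the 23 other piRNA pathway genes (circles); the dashed line marks equal effects. Spocd1 and Piwil4 lie above the line with labelled Spo11KO values below 0, and Pld6 lies below the line; the point of Dnmt3c rests on 1 or 2 counts per Veh library.

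The microRNA pathway, the small RNA pathway of most cell types, was set beside the 10 genes. Of its 10 genes, 2 rose and 1 fell under NRRA in Stra8KO, beside 21.4% and 20.1% of all tested genes. In labelled Spo11KO 3 rose and 6 fell, beside 24.7% and 25.5%, with a median of -0.18 beside 0.17 for the piRNA genes. The shares that rose were near those of all genes. Drosha, Tarbp2 and Xpo5 had the largest falls, from -0.45 to -0.53, while the Argonaute gene Ago4 rose from 3.87 and 4 CPM to 14.5 and 14.8 (1.90) and had an interaction of -1.74 ± 0.201 (edgeR adjusted p = 4.44e-09). Between genotypes 6 of these 10 genes were lower and 2 higher in Stra8KO with Veh, beside 30.7% and 31.5% of all tested genes, and 5 lower and 2 higher with NRRA, beside 29.1% and 35.2%. With germ marker scaling 10 were higher and 0 lower in Veh, beside 80.9% and 1.02%, and 9 higher and 0 lower under NRRA, beside 83.5% and 1.91%. Among paralogs of the 10 genes, Mov10, the broadly expressed relative of Mov10l1, rose in Stra8KO (0.53), and its interaction of 0.47 ± 0.0582 (edgeR adjusted p = 2.85e-08) had the opposite sign to that of Mov10l1. Piwil1, the PIWI protein of pachytene cells, rose in labelled Spo11KO (0.35). The Gtsf1 relatives Gtsf1l and Gtsf2 had at most 4 counts in any library and were not tested.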

How the data were processed

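The authors deposited raw counts of reads for each Ensembl gene in 1 table with a column per library. Per the labels' processing notes, reads were mapped with STAR 2.6.1c to mm10 and counted with featureCounts 1.6.4; the annotation release, the strand setting and how multi-mapping reads were handled are not given in the sources used here. Libraries were stranded poly(A) mRNA libraries. Counts of the 2 libraries of a group differed by more than sampling noise (mean chi-square per gene 1.86 to 4.12). The excess was small for most genes, with medians of 0.741 to 0.973 beside 0.455 for noise alone. The common coefficient of variation between libraries of a group, beyond sampling noise, was 3.39%. Whether this spread is that between independent cultures cannot be told from the labels.

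Analysis used edgeR 4.0.16 (R 4.3.3): filterByExpr (20588 genes with 99.88% of the counts), TMM scaling (which takes most genes as equal between libraries), 1 group-means model over all 8 libraries with robust quasi-likelihood dispersions, and two-sided F tests of 5 contrasts with Benjamini-Hochberg adjustment, called under 0.05. The steps were tested on simulated counts with the same dispersion for every gene and changed genes only in Stra8KO NRRA. That does not check variation between cultures or the scaling where many genes differ between genotypes. SE is the absolute log2 difference divided by the square root of F. CPM is per 1e+06 counts after TMM scaling, and RPKM divides it by the exon length of GENCODE release M21 (GRCm38, the same assembly as mm10), which held 99.67% of the identifiers. The study's methods name DESeq2, run here as an alternative (1.42.0). Other alternatives were other scalings, no filter, the 4 libraries of a comparison alone, a replicate block and leaving out each library; scaling without Elavl2 was added after its fall was seen. The 10 genes and all gene lists were chosen with earlier results of these data known. Other genes were named as the 3 largest called rises and falls per list and comparison. Precision follows depth, and Pld6 with 53 and 84 counts in Stra8KO Veh has the widest intervals.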

Additional observations from a re-analysis of the deposited data

Results flagged for a closer look

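The NRRA effect differed between Stra8KO and labelled Spo11KO cultures, by the test of the interaction, for 6 of the 10 piRNA genes. Of all tested genes, 14.6% had a called positive interaction and 10.1% a called negative one. On the log2 scale, the effect in Stra8KO exceeded that in labelled Spo11KO by 0.70 for Piwil4, 0.40 for Tdrd5, 0.30 for Asz1 and 0.29 for Tdrd1, while the difference was -0.27 for Tdrd9 and -0.20 for Mov10l1. Piwil4 and Tdrd5 kept their call under every alternative run, Tdrd1 lost it with libraries scaled by their totals, and Asz1, Tdrd9 and Mov10l1 lost it under at least 1 setting or without at least 1 library.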

How the results depend on the processing

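Over the 50 differences of single genes (10 genes in 5 comparisons), direction and side of the threshold were kept for 49 with DESeq2 size factors, 48 with the DESeq2 Wald test, 47 without the filter, 44 with library totals, 29 with either germ cell marker scaling, all 40 fitted from the 4 libraries of a comparison alone, and 46 to 49 when 1 library was left out. A lone library left in a group is then assumed to vary like the others. Where no value shows the cause of a change, the cause was not tested.

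In labelled Spo11KO, the genes called lower under NRRA numbered 1 with DESeq2 size factors, library totals, germ marker scaling, no filter and the DESeq2 Wald test, and 1 to 2 without 1 library, since the call of Asz1 was lost. With germ marker scaling without Elavl2 they numbered 3, as Piwil4 was gained (-0.26), and Asz1 was -0.23. Asz1 in Stra8KO became called with germ marker scaling (0.25) and without the second Stra8KO NRRA library (0.24). Gtsf1 turned to 0.03 with library totals and 0.03 with germ marker scaling, and ran from -0.14 to 0.00 without 1 library. In Stra8KO, Tdrd5 under NRRA was -0.02 with germ marker scaling without Elavl2.

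With germ marker scaling the genotype differences moved up in both media, and those of genes less reduced than the markers turned sign. In Veh, 5 genes were then called higher and 0 lower, beside 80.9% and 1.02% of all tested genes. Those that had turned were Piwil2 0.18, Mael 0.15, Tdrd1 0.29, Tdrd5 0.53, Tdrd9 0.12, Mov10l1 0.12, Asz1 0.01 and Gtsf1 0.07. Without Elavl2 (chosen after seeing the data) 3 were called higher and 0 lower, beside 79.1% and 1.4%. The values were Piwil2 0.10, Mael 0.08, Tdrd1 0.21, Tdrd5 0.46, Tdrd9 0.05, Mov10l1 0.04 and Gtsf1 0.00. Under NRRA, 7 were called higher and 2 lower, beside 83.5% and 1.91%. Those that had turned were Piwil2 0.21, Piwil4 0.67, Mael 0.24, Tdrd1 0.57, Tdrd5 0.94, Asz1 0.32 and Gtsf1 0.27. Without Elavl2, 6 were called higher and 3 lower, beside 81.7% and 2.43%. The values were Piwil2 0.13, Piwil4 0.59, Mael 0.16, Tdrd1 0.49, Tdrd5 0.86, Asz1 0.24 and Gtsf1 0.19.

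For the interaction, library totals left 2 genes called higher, and the values of Piwil2 and Mael were -0.06 and -0.01. Without the filter Piwil2 was -0.02. Without 1 library, Piwil2 ran from -0.01 to 0.09 and the genes called lower from 0 to 2. They numbered 0 without Stra8KO Veh replicate 1 and 1 without Stra8KO NRRA replicate 2. Library totals moved the median of all tested genes to -0.112 and -0.141 in the genotype comparisons and to 0.105 for NRRA in labelled Spo11KO, and changed the split of calls from 5087 higher and 5259 lower to 6546 and 4046 in the last.

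With the replicate number as a block, 7 genes rose in Stra8KO, and 6 rose and 2 fell in labelled Spo11KO. The replicate block changed none of the 50 calls. The deviations of same-numbered libraries correlated from -0.0678 to 0.143 over the 6 pairs of groups, so the numbers were not taken as pairs.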
